A study of Mus musculus with 12 samples.

Results

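TET2 binding sites were examined at the genes of the tumour necrosis factor (TNF) ligand and receptor superfamily in cultured mouse blood cells. The members, 42 of 21887 protein-coding genes, were chosen by symbol: every protein-coding mouse gene whose RefSeq symbol starts with Tnfsf or Tnfrsf, plus Tnf, Lta, Ltb, Ltbr, Fas, Fasl, Cd27, Cd40, Cd40lg and Cd70. The rule uses no measured value, but it was proposed with earlier results of these data known. The study used chromatin immunoprecipitation sequencing (ChIP-seq), which recovers DNA fragments bound by a protein, to ask where TET2, an enzyme that oxidizes 5-methylcytosine, sits in hematopoietic cells. The myeloid cells were immortalized hematopoietic cells with the MigR1-AML1-ETO transgene, of genotype Tet2fl/fl; AML1-ETO or, as knockout, Tet2-/-; AML1-ETO. The acute myeloid leukemia (AML) cells carried no transgene and had the genotype Npm1+/cA; Fl3+/ITD, spelled as in the labels, or as knockout Npm1+/cA; Fl3+/ITD; Tet2-/-. Each cell type gave 2 wild-type and 2 knockout libraries, immunoprecipitated with an antibody to the N terminus of TET2, plus 1 input and 1 IgG library of the genotype that was not knocked out. All cells grew in vitro with stem cell factor at 50 ng/ml and interleukins 3 and 6 at 10 ng/ml each. The sources used here do not say whether a culture was 1 clone.

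The deposited data are 1 list of TET2 sites per cell type, given as positions on the mm10 build with no height, score or value per library. The depth behind a site is therefore unknown and no site has a replicate error. The AML list held 7002 sites and the myeloid list 19706, or 6895 and 18822 after overlapping sites of a list were merged. A site was assigned to the protein-coding gene whose start or end was nearest to the site midpoint, within 100 kb. Intervals given below are exact Clopper-Pearson 95% intervals and cover counting error over sites only. A longer list holds more sites at most kinds of gene, so counts in the lists are set beside the share of all protein-coding genes with a site in the same list.

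TNF superfamily ligands are mostly membrane proteins that act as trimers, on the cell surface or after being cut free. Their receptors fall into those with a cytoplasmic death domain, which can recruit adaptors and caspases, those that signal mainly through TRAF adaptors to NF-kB and MAP kinases, and decoys that bind ligand without full signalling. In blood, these pairs govern inflammation, survival and death of leukocytes, lymphoid organ formation and costimulation of T and B cells, and TNF itself restrains or supports stem and progenitor cells depending on context.

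TET2 sites lay at 11 of the 42 superfamily genes in the AML list (26.2%, where 18.6% of all protein-coding genes had a site) and at 27 in the myeloid list (64.3%, where the share of all genes was 40.0%). At 10 members each list had at least 1 site (23.8%, against 16.6% of all genes), and at 9 of them the lists shared a site. Cd40lg had a site in the AML list alone, 17 members had one in the myeloid list alone, and 14 had none. Of all 21887 protein-coding genes, 445 had AML sites alone, 5130 had myeloid sites alone and 12682 had no site. These shares and counts are given without a test. The members held 21 AML sites and 42 myeloid sites. Per Mb of territory, the stretch of sequence within 100 kb for which this gene's ends are the nearest, this was 7.70 AML sites, against 3.58 over all genes. In the myeloid list it was 15.4 sites per Mb, against 10.1. Of the 21 AML sites, 12 lay at only 3 genes (Tnfrsf21, Tnfrsf14 and Tnfrsf8, picked for their counts). The other 39 members had 9 AML sites, or 3.83 per Mb, and 31 myeloid sites, or 13.2 per Mb. The values over all genes keep their own site-rich genes, so they are no like measure for these 39 members.

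**Figure D1:**
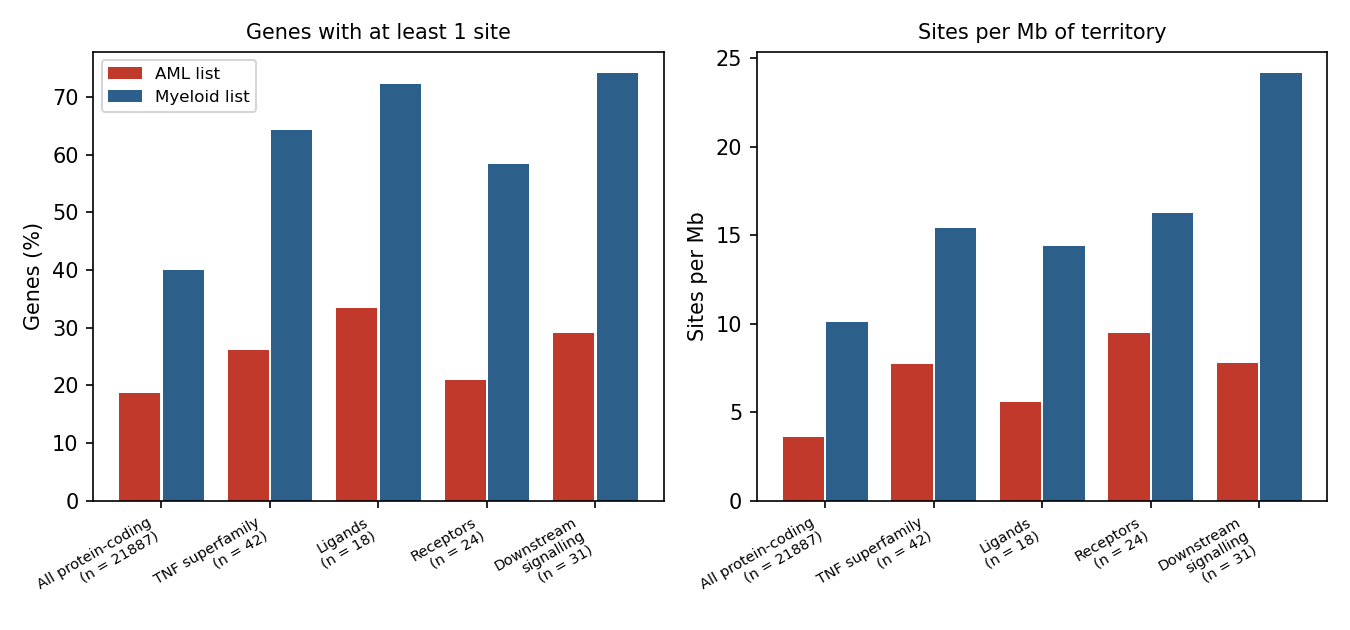
Left, the percentage of genes with at least 1 assigned TET2 site; right, assigned sites per Mb of territory, for all protein-coding genes, the TNF superfamily, its ligands, its receptors and genes of downstream signalling, with the AML list in red and the myeloid list in blue. Each bar is 1 value from 1 list, without replicates; the superfamily stands at 26.2% and 64.3% of genes, against 18.6% and 40.0% of all genes.

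Of the 18 ligand genes, 6 carried sites in the AML list (33.3%, against 18.6% of all genes; 7 sites) and 13 in the myeloid list (72.2%, against 40.0%; 18 sites). Tnf, the inflammatory cytokine that names the family (chromosome 17, 35199367 to 35202007, minus strand), had 1 site in each list, and these were the same place: the AML site ran from 35200268 to 35200978 and the myeloid site from 35200204 to 35201022. Their midpoints were 10.0 bp apart and lay inside the gene, 1.38 and 1.39 kb from its 5′ end. The gene table has no exons, so exon or intron is not given. Tnf sits between Lta and Ltb, which encode the lymphotoxin chains. Lta had no site of its own, and Ltb had 1 myeloid site, 1.31 kb upstream of its 5′ end. The territory of Tnf is only 4.75 kb long because its neighbours are so close. Within 20 kb of the ends of Tnf lay 7 myeloid sites and 1 AML site, and 6 of the 7 myeloid sites were nearer to Lst1, Nfkbil1 or Ltb.

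Tnfsf14 (chromosome 17, 57189474 to 57194181, minus strand) encodes LIGHT, a ligand of the receptors made from Tnfrsf14 and Ltbr. It was the only ligand gene with a site at a gene end in the AML list. Its AML site (57193773 to 57194496) and myeloid site (57193737 to 57194499) were shared and centred 0.046 and 0.063 kb inside the 5′ end. Tnfsf9, a costimulatory ligand of activated T cells from the same stretch of chromosome 17, had 1 shared site 5.35 kb from its nearer end (AML site 57112713 to 57113505, myeloid site 57112663 to 57113522). Cd70, which lies between these genes and encodes the ligand of CD27, had none.

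Tnfsf18, the ligand of the T cell receptor GITR on chromosome 1, was 1 of 3 members with more AML than myeloid sites. The others were Cd40lg and Tnfrsf8, and 2.86% of all genes had this order. Tnfsf18 had a shared site 12.3 kb upstream of its 5′ end (AML site 161482032 to 161482722, myeloid site 161481963 to 161482780). A second AML site, 2.85 kb into the gene (161497176 to 161497833), was not in the myeloid list. Cd40lg, the T cell ligand that activates B cells through CD40, had its AML site 15.8 kb from its nearer end and no myeloid site. Tnfsf15, which encodes the DR3 ligand TL1A, had 1 site in each list, but in different places. Its AML site lay 41.3 kb past the 3′ end (63682977 to 63683628 on chromosome 4) and its myeloid site 30.9 kb upstream of the 5′ end (63775527 to 63776341).

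The remaining 8 ligand genes with sites had them in the myeloid list alone, as did 5130 of all 21887 protein-coding genes. Fasl, the death ligand of cytotoxic lymphocytes, and Tnfsf11, which encodes RANKL, the cytokine required for osteoclast formation, had 3 each, where 9.02% of all genes had at least 3. Those of Fasl lay on chromosome 1 at 161734724 to 161735436 and 161766439 to 161767151, past the 3′ end, and at 161794667 to 161795318, 6.50 kb upstream of the 5′ end. Those of Tnfsf11 lay on chromosome 14, 1 inside the gene 3.83 kb from the 5′ end (78303894 to 78304527) and the others 22.8 and 64.2 kb upstream (78330446 to 78331171 and 78371954 to 78372627). The territories of Fasl and Tnfsf11, 122 and 217 kb, are long against a median of 46.4 kb over all protein-coding genes. With all annotated genes as possible neighbours, Fasl and Tnfsf11 kept 1 site each, and with a limit of 20 kb they kept 2 and 1. None of the 6 sites was in the AML list, whose nearest site to either gene was 109 kb from Fasl and 130 kb from Tnfsf11. Tnfsf8, the CD30 ligand, had 2 myeloid sites, 14.1 kb into the gene and 37.7 kb upstream. The others had 1 each, besides Ltb at 4 genes: the TRAIL gene Tnfsf10, 31.8 kb upstream; the TWEAK gene Tnfsf12, at a gene end; the gene of the B cell survival factor BAFF, Tnfsf13b, 1.10 kb upstream; and the OX40 ligand gene Tnfsf4, 1.09 kb inside a gene end. The Tnfsf12 site cannot be told apart from 1 at Tnfsfm13, a readthrough gene of Tnfsf12 and Tnfsf13 whose outer end is at the same base. Cd70, Lta, Tnfsf13, which encodes the B cell factor APRIL, and Tnfsfm13 were assigned no site.

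**Figure D2:**
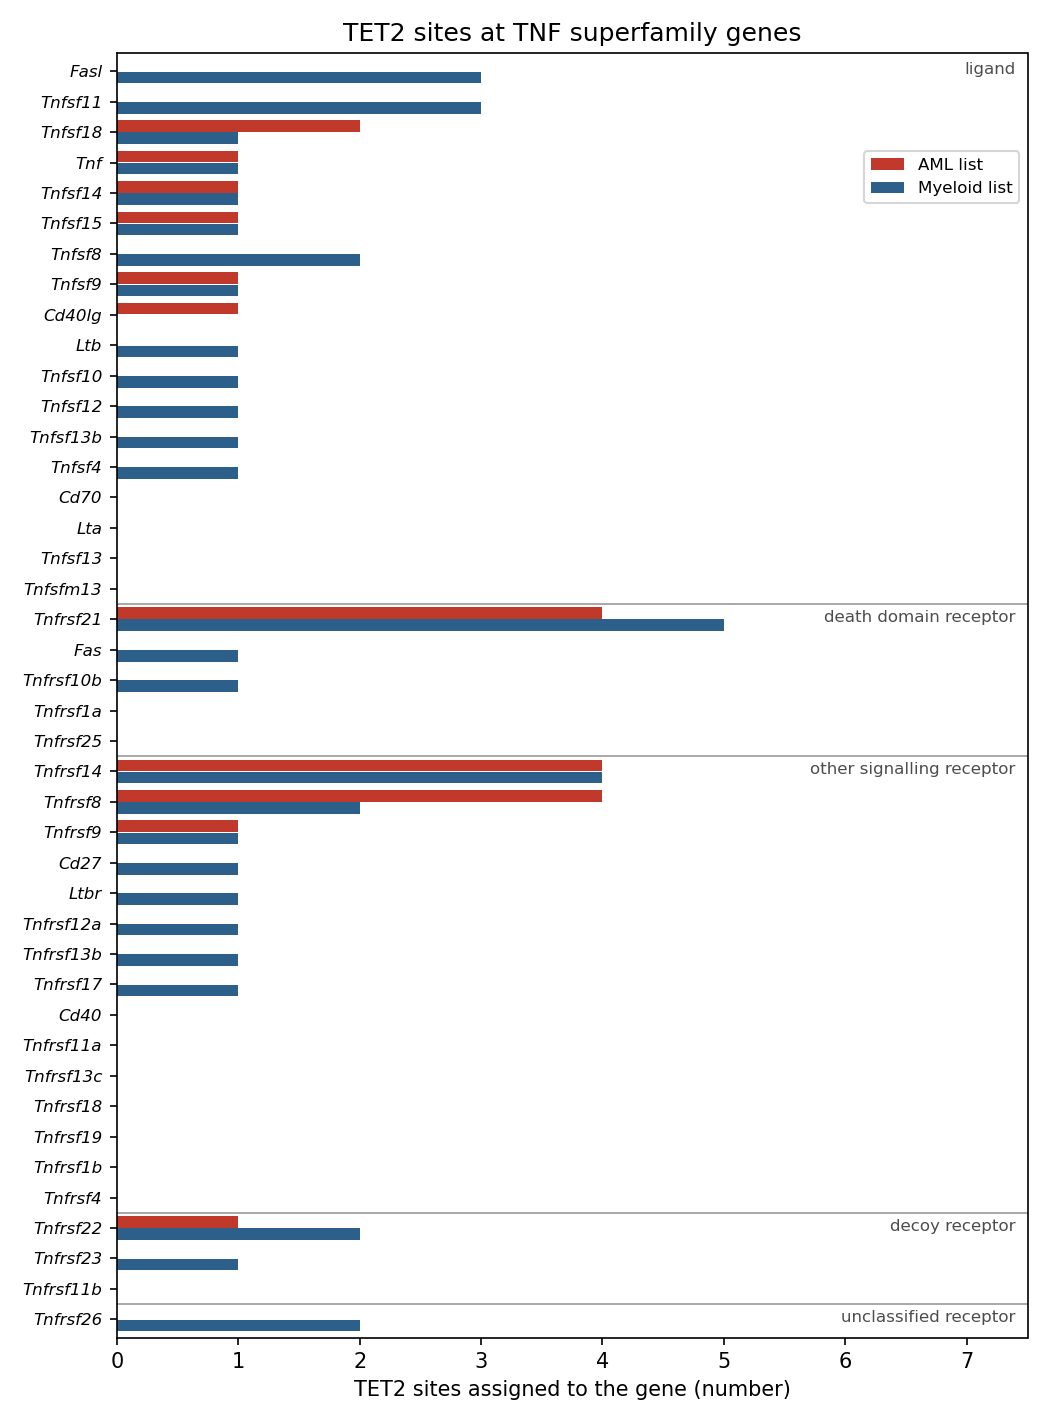
Number of TET2 sites assigned to each of the 42 TNF superfamily genes, grouped by role (ligands, death domain receptors, other signalling receptors, decoy receptors and the unclassified Tnfrsf26), with red bars for the AML list and blue bars for the myeloid list. Tnfrsf21 has the most sites in all (4 AML and 5 myeloid), followed by Tnfrsf14 (4 and 4) and Tnfrsf8 (4 and 2), and 14 genes have none; with a 20 kb limit or with all annotated genes Tnfrsf14 comes before Tnfrsf21.

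Among the 5 death domain receptors, Tnfrsf21 had the most sites, and Fas and Tnfrsf10b had 1 each. Tnfrsf21 encodes DR6 and lies on chromosome 17 from 43016555 to 43089188 (plus strand). It had 4 AML sites, as did Tnfrsf14 and Tnfrsf8, where 0.786% of all genes had at least 4. All 4 were shared with the myeloid list. The AML sites ran from 43017220 to 43017951 and from 43035939 to 43036841 inside the gene, and from 43128146 to 43128862 and from 43138213 to 43138921 past its 3′ end. The matching myeloid sites were centred 14.5, 37.0, 85.0 and 10.5 bp away. One more site, 42.3 kb into the gene (43058493 to 43059140), was in the myeloid list alone. The first pair of sites lay 1.03 and 1.05 kb inside the 5′ end, just beyond the 1 kb used here for a gene end. Its territory of 233 kb is the longest of the superfamily, and the next protein-coding gene was over 130 kb from each of its sites. With all annotated genes as possible neighbours, 2 AML and 3 myeloid sites stayed with Tnfrsf21, and with a limit of 20 kb 2 in each list did. Under both settings Tnfrsf14, which kept 4 sites in each list, had more sites than Tnfrsf21.

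Fas, the receptor of FAS ligand, had 1 myeloid site (chromosome 19, 34290294 to 34290996), centred 0.0020 kb from its 5′ end, and no AML site within 114 kb. Tnfrsf10b, the mouse TRAIL receptor that can trigger apoptosis, had 1 myeloid site 6.94 kb inside the gene. Tnfrsf1a, the main TNF receptor, and Tnfrsf25, which encodes DR3, were assigned no site. For Tnfrsf1a the nearest myeloid site was 3.96 kb from its end and went to Scnn1a, whose end was 0.821 kb away. The nearest AML site was 23.3 kb from Tnfrsf1a and went to Plekhg6.

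Among the 15 other signalling receptors, sites lay at 3 genes in the AML list (20.0%, near the 18.6% of all genes) and at 8 in the myeloid list (53.3%, against 40.0%). The remaining 7 genes had none. Tnfrsf14 encodes HVEM, which binds LIGHT and also the inhibitory receptor BTLA, and lies on chromosome 4 from 154918487 to 154928620 (minus strand). It had 4 sites in each list, of which 3 were shared, where 4.91% of all genes had at least 4 myeloid sites. One shared site lay past the 3′ end (AML site 154910996 to 154911741), and the others lay 0.922 kb (154929185 to 154929900) and 9.29 kb (154937551 to 154938259) upstream in the AML list. The unshared sites were also upstream, at 6.61 kb in the AML list (154934897 to 154935559) and at 15.8 kb in the myeloid list (154944093 to 154944802). No site of either list lay inside the gene. All 8 sites fell in a territory of 35.9 kb, much shorter than that of Tnfrsf21.

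Tnfrsf8 encodes CD30, an activation receptor of lymphocytes, and lies on chromosome 4 from 145267132 to 145315164 (minus strand). Its territory is 107 kb long, against a median of 46.4 kb over all protein-coding genes. All of its 4 AML sites were inside the gene, at 145267365 to 145268179, 145270019 to 145270712, 145294438 to 145295196 and 145299965 to 145300698. Only that from 145270019, which is 3.23 kb from the 3′ end, was shared. The myeloid list had this site and 1 past the 3′ end (145257838 to 145258508). Tnfrsf8 thus had 3 AML-only sites and 1 myeloid-only site, while over all members there were 7 AML-only and 28 myeloid-only sites. Tnfrsf1b, the second TNF receptor, is the neighbour of Tnfrsf8 on its 3′ side. It was assigned no site, and its nearest were those of Tnfrsf8, 11.3 kb away in the myeloid list and 20.9 kb away in the AML list.

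Tnfrsf9, a costimulatory receptor of T cells and the partner of Tnfsf9, had 1 shared site, 4.24 kb into the gene in the AML list (chromosome 4, 150923988 to 150924795) and 4.29 kb in the myeloid list. The other 5 receptors with a site had 1 myeloid site each. Ltbr, the lymphotoxin beta receptor, and Tnfrsf12a, which encodes the TWEAK receptor Fn14, had theirs at the 5′ end. That of Cd27, the receptor of CD70 on lymphocytes, lay 4.69 kb upstream. The sites of the BAFF and APRIL receptor genes Tnfrsf13b and Tnfrsf17 (which encode TACI and BCMA) lay 9.95 and 28.1 kb upstream. The body of Tnfrsf13b held 2 further myeloid sites that were nearer to the end of Usp22. Cd40, Tnfrsf11a (which encodes RANK), Tnfrsf13c (the BAFF receptor), Tnfrsf18 (GITR), Tnfrsf19, Tnfrsf1b and Tnfrsf4 (OX40) were assigned none. The nearest myeloid site to Cd40 was 44.2 kb away and that to Tnfrsf11a 117 kb away. Tnfrsf18 had a site in each list 3.17 and 3.11 kb from its end that went to Ttll10.

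Tnfrsf22 and Tnfrsf23, which encode decoy receptors of TRAIL, lie with Tnfrsf26 in a row on chromosome 7. Tnfrsf22 had 1 AML site (143631385 to 143632088), which was shared, and 2 myeloid sites. Tnfrsf23 had 1 myeloid site at its 5′ end and Tnfrsf26, whose role is less clear, had 2 myeloid sites. The shared site lies between Tnfrsf22 and Tnfrsf26, at 3.07 kb from the former and 3.89 kb from the latter. Tnfrsf11b, which encodes osteoprotegerin, the soluble decoy of RANKL, had none, and its nearest site was 252 kb away in the myeloid list and 606 kb away in the AML list.

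**Figure D3:**
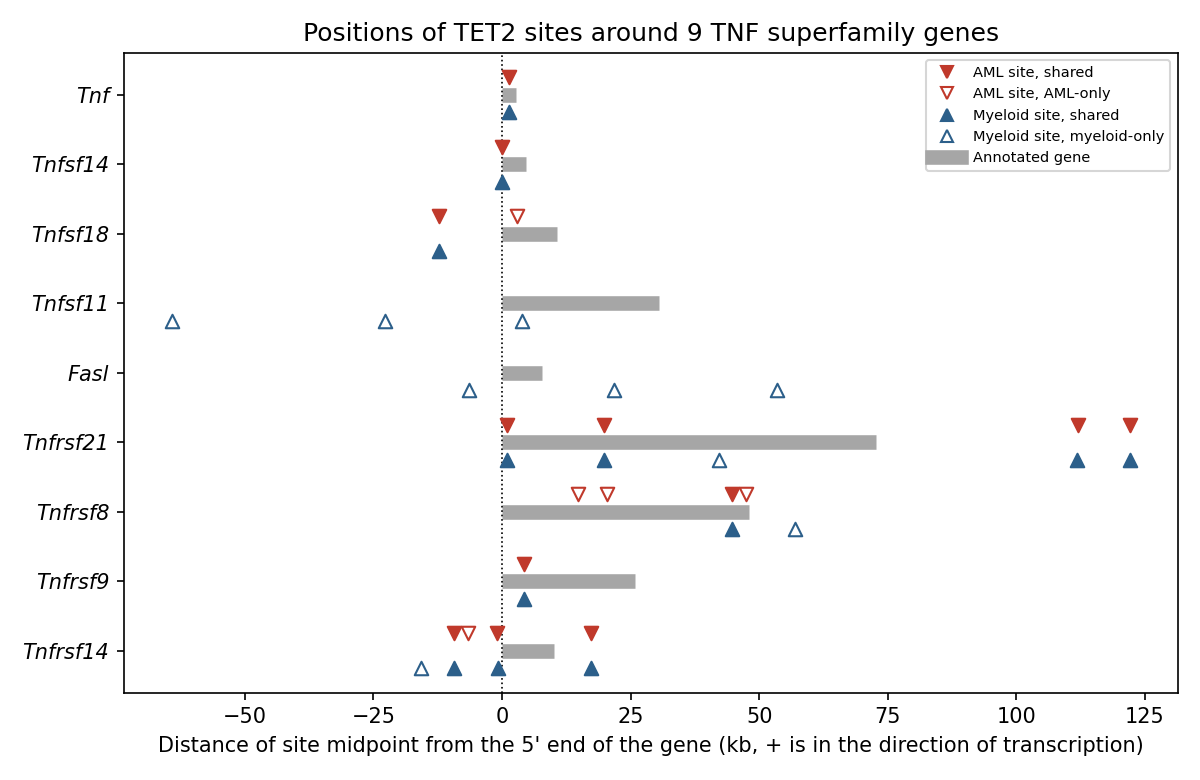
Midpoints of TET2 sites around 9 TNF superfamily genes, as distance in kb from the 5′ end of the gene in the direction of transcription, with the annotated gene as a grey bar, AML sites as red triangles above it and myeloid sites as blue triangles below it. Filled triangles are shared sites and open ones are in 1 list alone; the 4 AML sites of Tnfrsf21 each stand over a myeloid site, and 3 of the 4 of Tnfrsf8 do not.

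Ligand and receptor genes can be set side by side by their textbook pairings. Where both partners had sites, Tnfsf9 and Tnfrsf9 each had 1 shared site, and Tnfsf14 and Tnfrsf14 each had shared sites, while Ltbr, which also binds LIGHT, had a myeloid site alone. Fasl and Fas had sites in the myeloid list alone, as did Tnfsf12 and Tnfrsf12a. For TRAIL, Tnfsf10, Tnfrsf10b and the decoy gene Tnfrsf23 had myeloid sites alone, and the decoy gene Tnfrsf22 had a shared site. Tnfsf8 had myeloid sites alone and Tnfrsf8 had sites in both lists. The BAFF gene Tnfsf13b and the receptor genes Tnfrsf13b and Tnfrsf17 had 1 myeloid site each, and Tnfrsf13c and the APRIL gene Tnfsf13 had none. The lymphotoxin gene Ltb and its receptor gene Ltbr had 1 myeloid site each, and Lta none. In other pairs 1 side was assigned no site. Tnf had a shared site and Tnfrsf1a and Tnfrsf1b none, and Tnfsf11 had myeloid sites and Tnfrsf11a and Tnfrsf11b none. Cd40lg had an AML site and Cd40 none, Tnfsf18 had sites in both lists and Tnfrsf18 none, and Tnfsf15 had sites in both lists and Tnfrsf25 none. Tnfsf4 had a myeloid site and Tnfrsf4 none, and Cd27 had a myeloid site and Cd70 none. These pairings depend on the rule of the nearest gene end. Sites within 20 kb of Tnfrsf1a, Tnfrsf1b, Tnfrsf18, Tnfrsf25 and Tnfrsf4 went to other genes. Cd40, Cd70, Tnfrsf11a and Tnfrsf11b had no site within 20 kb. With all annotated genes as possible neighbours, Cd27, Cd40lg, Tnfsf10 and Tnfsf15 lost their sites. No share over other gene pairs is given.

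Sites are called shared because they overlap, so the midpoints of a shared pair lie near each other by definition. Of the 21 AML sites, 14 were shared (66.7%, 43.0 to 85.4), against 72.6% of all assigned AML sites, and they were 33.3% of the 42 myeloid sites (19.6 to 49.5), against 25.8%. Both intervals hold the value over all sites. The midpoints of the 14 pairs were 5.50 to 85.0 bp apart, with a median of 22.8 bp, and over all 4420 assigned shared AML sites the median was 25.5 bp. Member sites were 651 to 902 bp wide in the AML list and 630 to 953 bp in the myeloid list, with a median of 715 bp in both. Of the AML sites 10 lay inside the member's body and 4 each upstream and downstream of it. Of the myeloid sites 14 lay inside, 18 upstream and 6 downstream. The remaining 3 AML and 4 myeloid sites lie outside genes whose strand was not used here. For upstream and downstream sites no value over all genes is given. Sites inside the body of any protein-coding gene and over 1 kb from the nearest gene end were also counted. That body need not be of the gene the site was assigned to. They were 8 of 21 AML sites (38.1%, 18.1 to 61.6; 46.9% over all). In the myeloid list they were 11 of 42 (26.2%, 13.86 to 42.04; 42.56% over all). The AML interval holds the value over all sites, and the myeloid interval narrowly leaves it out.

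Sites at gene ends, within 1 kb of the start or end of a gene, were a small part of the sites in both lists. They were 3 of 21 AML sites (14.3%, 3.05 to 36.3; 9.99% over all assigned AML sites) and 8 of 42 myeloid sites (19.0%, 8.60 to 34.1; 24.8% over all). By gene, 3 members had such a site in the AML list, where 2.74% of all genes had one, and 8 in the myeloid list, where the share of all genes was 18.6%. The AML sites were those at the 5′ ends of Tnfrsf14 and Tnfsf14 and the one at the 3′ end of Tnfrsf8. The myeloid sites were at Fas, Ltbr, Tnfrsf12a, Tnfrsf14, Tnfrsf23, Tnfrsf26, Tnfsf12 and Tnfsf14. Ltbr shares its 5′ side with Scnn1a, whose end was 0.287 kb from the site, against 0.0990 kb for Ltbr.

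RefSeq promoter windows of 300 bases, from 250 before to 50 after an annotated start, were matched to 32 of the 42 members by symbol (36 windows, build GRCm38.p6). A myeloid site overlapped a window of 6 of these 32 members, where 20.3% of all genes with a window had this. The site over the window of Tnfsfm13 was assigned to Tnfsf12. An AML site overlapped a window of 1 of the 32, Tnfsf14, where 1.94% of all genes with a window had this. In each of the 6 cases the site covered the whole window. The sequences are printed because they are the promoter DNA that the sites covered. Each is in the direction of transcription, and capitals mark any match, on either strand, to TGTGGT (RUNX), AGGAAGT (ETS), TTGCNNAA (C/EBP), TGANTCA (AP-1) or a 10-base NF-kB consensus.
Tnfsf14 (chr17:57194132-57194431, minus strand): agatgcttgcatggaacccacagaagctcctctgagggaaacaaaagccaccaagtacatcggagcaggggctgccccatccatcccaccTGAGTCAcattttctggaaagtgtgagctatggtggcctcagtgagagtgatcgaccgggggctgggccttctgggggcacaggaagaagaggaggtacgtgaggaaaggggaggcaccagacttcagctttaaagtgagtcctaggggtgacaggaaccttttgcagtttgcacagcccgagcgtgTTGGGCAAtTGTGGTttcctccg
Fas (chr19:34290409-34290708, plus strand): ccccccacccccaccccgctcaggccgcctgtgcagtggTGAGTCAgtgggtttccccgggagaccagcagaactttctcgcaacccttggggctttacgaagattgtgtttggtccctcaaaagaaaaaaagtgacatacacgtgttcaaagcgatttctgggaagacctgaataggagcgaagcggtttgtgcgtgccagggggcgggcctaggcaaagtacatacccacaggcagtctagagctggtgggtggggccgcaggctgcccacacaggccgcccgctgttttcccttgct
Ltbr (chr6:125313836-125314135, minus strand): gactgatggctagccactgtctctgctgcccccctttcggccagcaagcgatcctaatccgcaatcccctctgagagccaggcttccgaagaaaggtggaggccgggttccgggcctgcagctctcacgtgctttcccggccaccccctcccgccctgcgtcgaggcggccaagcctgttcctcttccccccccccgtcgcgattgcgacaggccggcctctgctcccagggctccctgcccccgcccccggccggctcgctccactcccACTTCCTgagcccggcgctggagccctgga
Tnfrsf12a (chr17:23677400-23677699, minus strand): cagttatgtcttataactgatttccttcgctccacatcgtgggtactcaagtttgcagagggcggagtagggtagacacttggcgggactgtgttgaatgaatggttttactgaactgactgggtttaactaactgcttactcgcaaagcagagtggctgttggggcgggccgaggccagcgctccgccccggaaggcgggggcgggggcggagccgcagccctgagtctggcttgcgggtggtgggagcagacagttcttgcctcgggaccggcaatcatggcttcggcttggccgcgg
Tnfrsf23 (chr7:143685826-143686125, minus strand): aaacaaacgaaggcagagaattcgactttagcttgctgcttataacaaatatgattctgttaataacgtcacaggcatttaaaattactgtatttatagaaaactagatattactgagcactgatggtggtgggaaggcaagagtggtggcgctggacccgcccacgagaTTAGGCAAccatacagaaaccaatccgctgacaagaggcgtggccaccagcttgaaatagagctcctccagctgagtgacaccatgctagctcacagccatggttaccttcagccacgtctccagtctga
Tnfsfm13 (chr11:69696049-69696348, minus strand): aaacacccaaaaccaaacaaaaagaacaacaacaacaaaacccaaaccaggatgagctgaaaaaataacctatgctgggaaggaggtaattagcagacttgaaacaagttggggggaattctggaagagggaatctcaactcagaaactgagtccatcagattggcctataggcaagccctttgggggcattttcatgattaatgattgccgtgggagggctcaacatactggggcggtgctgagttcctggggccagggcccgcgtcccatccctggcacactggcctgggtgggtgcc
Of these windows, that of Tnfsf14, under a site in both lists, held the most kinds of match. It had 1 match to the AP-1 letters before the start, and after it 1 to the C/EBP and 1 to the RUNX letters, with 1 base between them. Fas had 1 AP-1 match, Ltbr 1 ETS match after the start and Tnfrsf23 1 C/EBP match, and the windows of Tnfrsf12a and Tnfsfm13 had none. Over the 21263 windows of protein-coding genes, 15.0% held the RUNX letters, 9.07% the ETS, 10.2% the C/EBP, 6.99% the AP-1 and 0.423% the NF-kB letters. The windows under sites differed in CG dinucleotides, which TET enzymes act on when methylated: Ltbr had 23, Tnfrsf12a 20, Fas 14, Tnfrsf23 9, Tnfsf14 7 and Tnfsfm13 4. The median was 13.0 over all windows, 23.0 over windows under a myeloid site and 18 over windows under an AML site. Tnfsf14, Tnfrsf23 and Tnfsfm13 thus lay below the median of all windows.

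The 14 members without a site had a median territory of 18.6 kb, against 44.3 kb for the 28 members with a site and 46.4 kb over all protein-coding genes. The groups overlapped: 5 of the 14 (Tnfrsf11b, Tnfrsf19, Tnfrsf11a, Tnfrsf1b and Cd40) had territories longer than 44.3 kb, up to 194 kb at Tnfrsf11b. Tnfsfm13, also among the 14, shares its ends with Tnfsf13 and Tnfsf12, and ties go to the first symbol. It could therefore get no site, whatever the data. The 20.4 kb of territory credited to it and the 16.7 kb of Tnfrsf4 set the median of 18.6 kb, which thus rests in part on this rule. For 8 of the 14, a site of at least 1 list lay within 20 kb of an end but was nearer to another gene. In addition, 23 of the 42 members have another member within 100 kb, such as Lta, Tnf and Ltb or Tnfsf9, Cd70 and Tnfsf14, so neighbouring members are not independent counts. When every member with an end within 20 kb of a site was counted, whichever gene was nearest, 18 members had sites in the AML list and 32 in the myeloid list. These numbers were 9 and 24 with all annotated genes as possible neighbours. The sites of Cd27, Cd40lg, Tnfsf10 and Tnfsf15 then went to other genes. No share of all genes is given for these other rules. The counts under them therefore cannot be set against the 18.6% and 40.0% of the main assignment.

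Genes of TNF receptor signalling were taken from a list of 31, mostly adaptors, ubiquitin enzymes, kinases and death effectors inside the cell. The 31 include Adam17, the gene of a cell surface protease, with 1 AML site and 2 myeloid sites. In the AML list 9 of them had a site (29.0%, against 18.6% of all genes; 19 sites) and in the myeloid list 23 (74.2%, against 40.0%; 59 sites). Per Mb of territory these were 7.78 AML sites and 24.2 myeloid sites, against 3.58 and 10.1 over all genes. Tank, which encodes a TRAF-binding regulator of the TBK1 kinase, had 5 AML sites, all shared, and 6 myeloid sites, where 0.302% of all genes had at least 5 AML sites. Tnfaip3, which encodes A20, a ubiquitin-editing inhibitor of NF-kB, had 4 AML sites, of which 2 were shared, and 7 myeloid sites, where 0.786% of all genes had at least 4 AML sites. Map3k14, the NF-kB inducing kinase of the noncanonical pathway, and Map3k5, the stress kinase ASK1, each had 2 AML sites, all shared, and 6 myeloid sites. Bid, a death effector cut by caspase 8, had 1 and 4, and the adaptor gene Traf1 had 2 and 3. These 6 genes were picked for having the most sites, so their large part of the sites follows from that choice. They held 16 of the 19 AML sites and 32 of the 59 myeloid sites of the list. Tank, Map3k5 and Tnfaip3 have long territories of 204, 216 and 186 kb, against a median of 44.5 kb over the list. Cyld, Map3k7, Rbck1, Ripk1, Sharpin, Traf4 and Traf6 had no site in either list, and Otulin had 1 AML site alone. Of the 9 genes with an AML site, 8 also had a myeloid site (88.9%), as did 10 of the 11 superfamily genes (90.9%). Both shares were near that of all genes with an AML site, 89.1%. As shares of the genes with a myeloid site these were 34.8%, 37.0% and, over all genes, 41.4%.

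**Figure D4:**
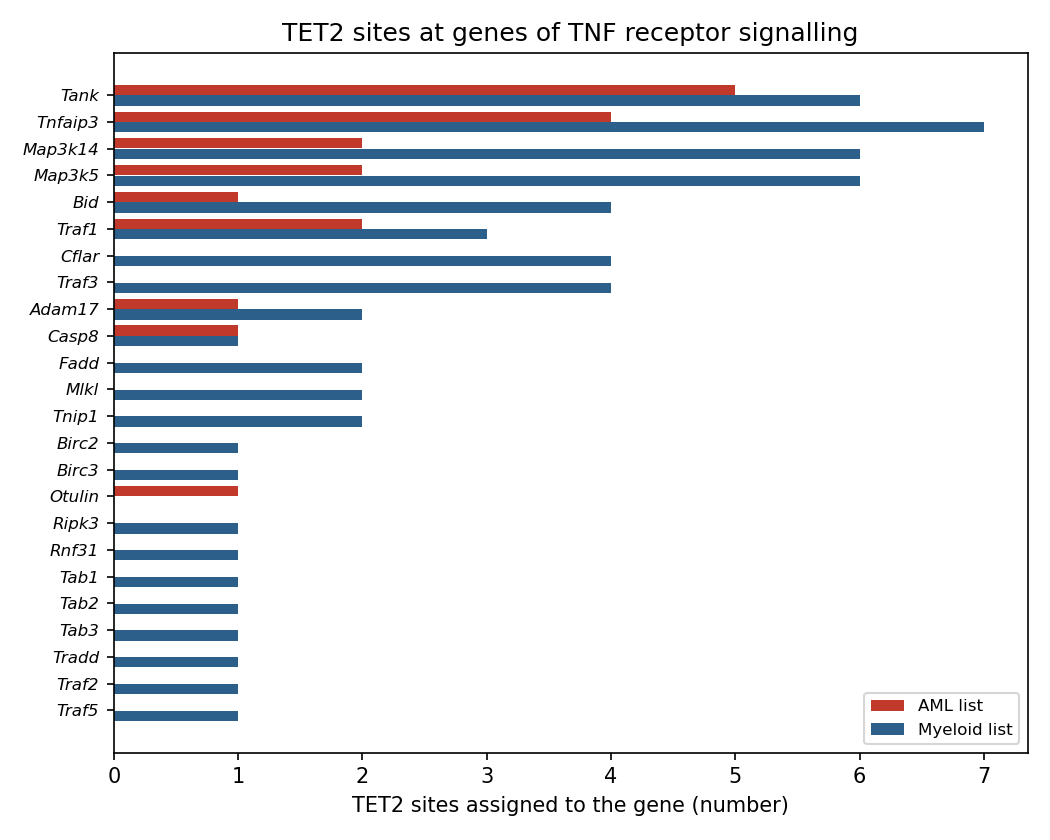
Number of TET2 sites assigned to each gene of TNF receptor signalling with at least 1 site, of a list of 31, with red bars for the AML list and blue bars for the myeloid list. Tank (5 AML and 6 myeloid sites) and Tnfaip3 (4 and 7) have the most. Of the 31 genes, 15 have myeloid sites alone, as do 5130 of all 21887 protein-coding genes.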

How the data were processed

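Per the labels' protocols, cells were crosslinked with 2 mM disuccinimidyl glutarate and then 1% formaldehyde before immunoprecipitation. The submitters' processing notes name the mm10 build and the tools Trimmomatic, Bowtie2 and MACS2, with no version. Each cell type has 1 deposited list, whose rows hold chromosome, start and end per the file headers. Whether starts count from 0 or 1 is not stated, so positions are uncertain by 1 bp. Peak calling thresholds, the pooling of replicates and the use of knockout, IgG and input libraries are not given in the sources, so wild-type and knockout cells were not compared.

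Here, the AML site of an unplaced contig (1 row) was dropped, overlapping sites of a list were merged, and sites of the lists that overlapped by at least 1 bp were called shared. Genes, starts and strands came from RefSeq tables of GRCm38.p6, which has the chromosome coordinates of mm10. Where genes ended at the same base, the site went to the symbol first in the alphabet. The steps were tested on simulated sites (Python 3.11.15, numpy 2.4.6, pandas 2.3.3, scipy 1.17.1). The members, roles, signalling list and motifs were chosen with earlier results of these data known. Every member with a site was named, with positions for members with at least 3 sites in a list or a site in both. Of the signalling list, the 6 genes with most sites were named. At most 6 promoters were printed, first those under sites of both lists. No set test was made.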

Additional observations from a re-analysis of the deposited data

How the results depend on the processing

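Alternatives changed the assignment limit to 20 or 50 kb, left sites unmerged, measured from the site edge, let all annotated genes compete, counted every member with an end within 20 kb, left out the readthrough gene Tnfsfm13, asked for 50% overlap, and set the gene end at 0.5 or 2 kb. Starts of promoter windows in place of gene ends were added after seeing the data. Of the 8 summary values, 5 (members with a site and member sites in each list, and the shared share of AML sites) were recomputed under each of the alternatives to assignment and merging. The signalling gene counts were recomputed with the 20 kb limit and all annotated genes, and the gene-end share with the other definitions of a gene end. In these runs the values stayed within 1.5 times their counts or within their 95% intervals, with 1 exception. With every member within 20 kb counted, 18 members had an AML site, in place of 11, since a site then counts for each member near it, also where another gene is nearer. The gene-end share of myeloid sites was 14.3% at 0.5 kb and 31.0% at 2 kb. For single members, 8 of 84 counts moved by over 1.5 times with the 20 kb limit, 11 with all annotated genes and 32 with every member within 20 kb. No paired analysis was possible because the lists hold no value for any library, and for the same reason no replicate could be left out. With the depth unknown, a missing site cannot be told apart from one under the authors' threshold.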
